A study of Mus musculus with 58 samples.

Results

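The mRNA of beige fat cells was compared with that of brown fat cells in mice that had been cooled and then warmed again. All 11603 rows of the deposited expression table were compared between 3 warm beige and 5 warm brown libraries, and no row of it was left out. The whole series holds 58 samples, of which 22 are mRNA libraries, and the other 36 (chromatin samples) were not analysed here. All mice were C57BL/6J on standard chow and a light cycle of 12 h. In NuTRAP mice a chosen Cre switches on a GFP tag on the cell's ribosomes, so that an anti-GFP antibody can recover the mRNA being translated in that cell type. The study used Ucp1-NuTRAP and Adipoq-NuTRAP mice, but the line used for a given library, and the sex and age of the mice, are not stated in the labels. A Ucp1 driver tags cells in which the Ucp1 gene is or was active, and an Adipoq driver tags adipocytes of every kind.

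The warm groups had spent 1 week at 4 °C followed by 4 weeks at 30 °C. Interscapular brown fat gave the warm brown libraries (n = 5) and the inguinal white depot the warm beige ones (n = 3). Cold brown (n = 5) and cold beige (n = 4) libraries were taken from the same depots after the week at 4 °C, while the warm white libraries (n = 5) are inguinal samples of animals that had lived at 30 °C from birth. Each library is labelled a biological replicate, but the labels do not say which mice gave more than 1 depot. The p-values measure the spread between these libraries. Values are log2 CPM, the logarithm of a gene's reads scaled to a common library size, a scale that is not adjusted for gene length, so levels are compared between groups and not between genes. Values at or below -5 log2 CPM are called the floor, which stands for no or almost no reads. For some genes the lowest level lies just above -5, such as -4.93 for Pvalb, and is not counted as floor. Every row of the table held at least 1 CPM in at least 3 of the mRNA libraries. A gene at the floor in a whole group is thus in the table only through other groups.

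Brown adipocytes are many-chambered cells rich in mitochondria that burn fuel to make heat. Beige adipocytes are heat-producing cells that appear within white fat depots, above all in the cold. Both use uncoupling protein 1 (Ucp1), which lets protons back across the inner mitochondrial membrane without making ATP, and both are driven by noradrenaline through beta-adrenergic receptors, cyclic AMP and protein kinase A. The depots have separate developmental origins, which adipocytes of each depot keep as a pattern of homeobox and T-box transcription factors. The series title asks how far rewarming changes the identity of beige and of brown cells, and this comparison asks how far apart the rewarmed cells of these depots lay.

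The promoters of 4 genes are shown as single examples of elements known from the factors of cold signalling, mitochondrial genes and interferon. Each is the stretch of 250 bases before the transcription start, 5′ to 3′ on the gene's strand, as given by RefSeq for GRCm38.p6. Capitals mark a match to a searched motif. In Ucp1 (chr8:83290098-83290347, plus strand) they mark the short cyclic AMP element TGACG, 147 to 143 bases before the start. In Dio2 (chr12:90739039-90739288, minus strand) they mark the full cyclic AMP element TGACGTCA, 95 to 88 bases before it. In Cycs (chr6:50566570-50566819, minus strand) they mark the same element, at 169 to 162 bases, and the NRF1 core GCGCANGCG on the other strand, at 61 to 53 bases. In Trim25 (chr11:88999153-88999402, plus strand) they mark the interferon element core TTCNNTTTC, at 9 to 1 bases.
Ucp1: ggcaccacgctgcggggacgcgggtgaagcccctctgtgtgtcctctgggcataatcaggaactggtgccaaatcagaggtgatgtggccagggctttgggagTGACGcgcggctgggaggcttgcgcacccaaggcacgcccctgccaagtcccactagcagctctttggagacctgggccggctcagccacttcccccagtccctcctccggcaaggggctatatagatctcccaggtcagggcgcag
Dio2: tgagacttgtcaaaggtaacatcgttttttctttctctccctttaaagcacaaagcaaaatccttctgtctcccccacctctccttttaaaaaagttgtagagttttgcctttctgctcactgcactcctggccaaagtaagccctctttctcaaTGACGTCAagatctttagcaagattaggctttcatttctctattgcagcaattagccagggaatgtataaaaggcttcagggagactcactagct
Cycs: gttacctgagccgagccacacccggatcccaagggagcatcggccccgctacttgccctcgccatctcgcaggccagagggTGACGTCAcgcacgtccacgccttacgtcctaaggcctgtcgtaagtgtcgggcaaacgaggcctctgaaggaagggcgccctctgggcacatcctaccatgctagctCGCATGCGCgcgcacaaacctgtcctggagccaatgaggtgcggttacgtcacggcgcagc
Trim25: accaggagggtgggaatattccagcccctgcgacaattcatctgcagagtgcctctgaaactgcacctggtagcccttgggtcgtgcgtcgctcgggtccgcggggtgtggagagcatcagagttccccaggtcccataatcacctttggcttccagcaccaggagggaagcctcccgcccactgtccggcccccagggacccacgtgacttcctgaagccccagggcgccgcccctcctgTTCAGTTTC

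Limma called 8758 of the 11603 rows different between warm beige and warm brown (75.5%, adjusted p under 0.05). Of these 4100 were higher in beige (35.3% of rows) and 4658 lower (40.1%), and 4163 were at least 2-fold apart (35.9%). Libraries within a group lay close together. The median SD was 0.134 log2 units in warm brown and 0.22 in warm beige, while the median absolute difference between the groups was 0.70. In 70% of rows the libraries of the 2 groups did not overlap, with beige higher in 3772 and lower in 4350. Differences of at least 3 log2 units were found for 468 rows higher and 214 lower in beige. Any list of genes is to be read against these shares.

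Over all rows a warm beige library lay 1.45 to 1.65 log2 units (root mean square) from the warm brown libraries and 0.58 to 0.68 from the other warm beige libraries. Its distance to warm white libraries of the same depot was 0.91 to 1.14, and to cold beige libraries 1.32 to 1.49. Warm brown libraries lay 1.13 to 1.34 from cold brown ones and 1.72 to 1.87 from warm white ones. The rewarmed beige libraries were thus nearer to white libraries of their own depot than to rewarmed brown libraries in every pair. No test was run on these distances, which share the same libraries.

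Some features of the libraries that move with the comparison are given first. Pre-ribosomal RNA (Rn45s) made up 4.43%, 5.72% and 4.32% of the summed values in warm beige 1 to 3, and 0.597%, 0.11%, 0.309%, 0.298% and 0.157% in warm brown 1 to 5. The means were 4.82% ± 0.778 (SD, n = 3) and 0.294% ± 0.19 (SD, n = 5), which an exact two-sided permutation test separated at p = 0.0357, the smallest p that 3 against 5 libraries allow. Warm white libraries held 2.06% to 2.41%. Floor values took 2 distinct levels among the libraries, which shows that a batch difference had been taken out, and by these levels warm beige 3 and warm brown 1 and 2 belong to batch 1 and the other 5 libraries to batch 2. Within batch 1, with 1 warm beige library, 6094 rows were called, and within batch 2 8326. In each, 0 were called opposite to the fit of all libraries.

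The positional transcription factors separated the depots, with genes at the floor in every library of 1 depot. Hoxa10, a posterior homeobox gene (chromosome 6, 52231197 to 52240854 in GRCm38.p6), stood at 4.7, 4.68 and 4.46 log2 CPM in warm beige 1 to 3 and at the floor in all 5 warm brown libraries. Hoxc10 (chromosome 15, 102966796 to 102971898) stood at 3.97, 4.29 and 4.35 in warm beige and Hoxc9 (chromosome 15, 102977032 to 102984444) at 3.46, 3.85 and 3.73, both at the floor in all 5 warm brown libraries. These neighbours of the Hoxc cluster pattern the rear of the body axis. The forebrain homeobox gene Emx2, at 1.11 to 1.58 in warm beige, and Gsc, goosecoid, at 0.28 to 2.78, were also at the floor in all warm brown libraries. No fold is given against a group at the floor. Such genes are in the table only through the groups that express them.

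Zic1, a zinc finger gene known as a marker of classical brown fat (chromosome 9, 91358058 to 91365768), showed the opposite. It stood at 3.79, 3.75, 3.95, 3.88 and 3.74 log2 CPM in warm brown 1 to 5 and at the floor in all 3 warm beige libraries. It was also at the floor in every cold beige and warm white library, and at 3.8 to 4.3 in cold brown. Hoxa5, a more anterior homeobox gene, stood at 2.27, 2.38 and 2.89 in warm beige and at 4.93, 5.05, 5.37, 5.2 and 5.14 in warm brown. The difference was -2.62 ± 0.20 log2 units (SE, adjusted p = 1.13e-10), with no overlap. Its neighbour Hoxa4 differed by -2.90 ± 0.32, from 0.25 ± 0.63 (SD, n = 3) in warm beige to 3.15 ± 0.17 (n = 5) in warm brown.

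Tbx1, a T-box gene reported in beige cells, stood at 3.15, 2.33 and 2.75 log2 CPM in warm beige. In warm brown it was at the floor in 4 libraries and at -4.11 in warm brown 3, so that the difference of 8.19 ± 0.82 (adjusted p = 7.03e-09) became 2.91 with 1 CPM added before taking logarithms. Shox2, a short stature homeobox gene, stood at 4.73, 4.51 and 4.89 in warm beige and at -1.87, -0.44, -0.91, -1.5 and -0.73 in warm brown, a difference of 5.80 ± 0.31. Neither gene's groups overlapped. The zinc finger gene Gata6 differed by 6.18 ± 0.45, Tbx15 by 3.43 ± 0.24 and Tbx18 by 3.01 ± 0.28, all higher in beige.

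Of 36 measured homeobox genes 19 were called higher in warm beige (52.8%) and 10 lower (27.8%), with a median difference of 0.70 log2 units against -0.05 over all rows. Within batch 1, with 1 warm beige library, 4 of the 36 were called lower. Of 15 T-box and other positional factors 11 were higher and 4 lower, with a median of 2.44. The 4 lower ones were Zic1, Ebf2 (-1.26 ± 0.09), an early B-cell factor that helps set brown fat identity, and its relatives Ebf1 and Ebf3, the last 2 named after their values were seen. In cold mice, where 34.7% of all rows were called higher and 27.2% lower in beige, 19 of the 36 homeobox genes were higher and 11 lower. For Hoxa10, Hoxc9, Hoxc10, Tbx1, Shox2, Zic1 and Hoxa5 the difference between depots in warm mice did not pass a test against that in cold mice (adjusted p from 0.299 to 0.956). Those of Hoxa10, Hoxc9, Hoxc10 and Zic1 rest on floor values. Hoxa4 was the exception among the genes plotted, at -0.74 in cold and -2.90 in warm mice (difference -2.16, adjusted p = 0.000274).

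**Figure D1:**
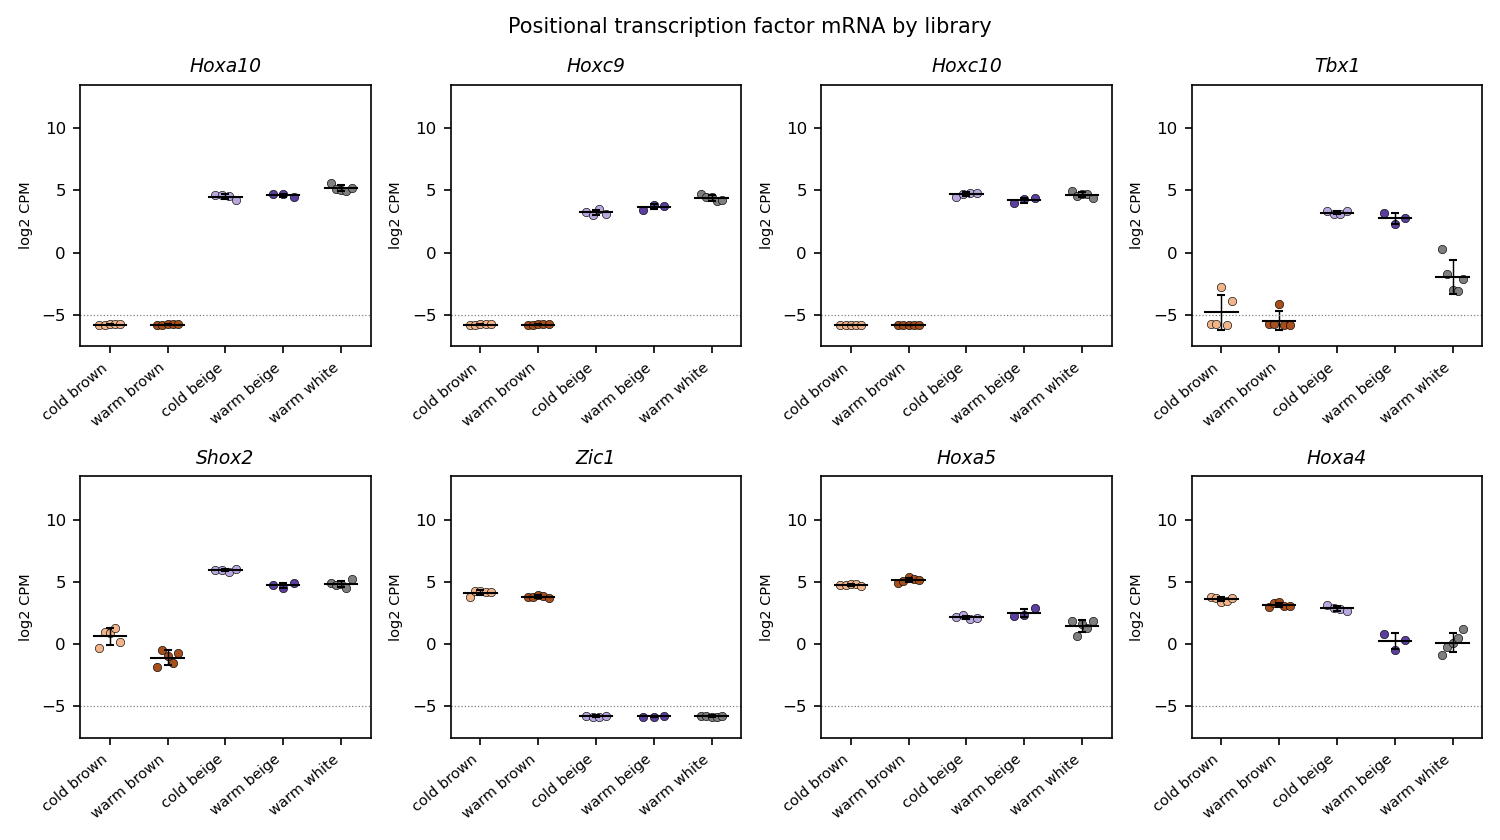
Log2 CPM of 8 positional transcription factor genes in each of the 22 libraries, by group on the x axis. Points are libraries, the line is the group mean, the bar its SD, and the dotted line the floor at -5; Hoxa10, Hoxc9 and Hoxc10 lie at the floor in all brown libraries and Zic1 in all beige and white libraries, while Hoxa5 and Hoxa4 are higher in warm brown than in warm beige.

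Ucp1 (chromosome 8, 83290348 to 83298456) stood at 1.53, 0.38 and 1.17 log2 CPM in warm beige 1 to 3. It stood at 8.84, 9.2, 8.37, 9.07 and 8.73 in warm brown 1 to 5. Every warm brown library was thus far above every warm beige library, and the warm white libraries lay lower still, from -5.59 to -1.11. The difference was -7.82 ± 0.57 log2 units (SE, adjusted p = 3.88e-11), -7.23 with 1 CPM added, and -7.85 within batch 1 and -7.77 within batch 2. In cold mice the same depots differed by -0.81, which did not pass the test (adjusted p = 0.183).

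The other genes of heat production followed with unequal sizes. Cidea, a lipid droplet protein, stood at 7.83, 7.66 and 6.51 log2 CPM in warm beige and at 9.79, 9.88, 9.67, 9.9 and 9.77 in warm brown. Its groups did not overlap, and the difference was -2.47 ± 0.29 (adjusted p = 8.28e-08), -3.33 within batch 1, whose only warm beige library is warm beige 3, and -2.04 within batch 2. Dio2, the deiodinase that makes active thyroid hormone, stood at 2.27, 2.34 and 1.67 in warm beige and at 5.73, 6.29, 5.57, 6.16 and 5.31 in warm brown. Its difference of -3.72 ± 0.72 (adjusted p = 7.53e-05) did not pass within batch 1 alone (-4.34, adjusted p = 0.0585). Ppargc1a, the coactivator that drives mitochondrial genes, was lower by a smaller amount, -1.38 ± 0.14, with warm beige at 5.6, 5.28 and 5.39 and warm brown at 6.65 to 6.98.

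Cox8b, a cytochrome oxidase subunit of brown fat and muscle, stood at 4.42, 4.37 and 4.49 log2 CPM in warm beige and at 8.3, 8.13, 8.03, 8.18 and 8.09 in warm brown. The difference was -3.72 ± 0.12 in warm mice, while in cold mice it was 0.00 (adjusted p = 0.979). Cpt1b, which admits fatty acids to mitochondria for oxidation, stood at 4.87, 4.21 and 3.75 in warm beige and at 9.48, 9.75, 9.28, 9.59 and 9.52 in warm brown, a difference of -5.25 ± 0.22. Neither gene's groups overlapped. Perm1, a regulator of oxidative genes in muscle and fat, was at 2.01, -1.08 and 1.08 in warm beige and at 6.87 to 7.16 in warm brown. Its difference of -6.38 ± 0.39 ran from -7.05 without warm beige 1 to -5.51 without warm beige 2. Elovl3, a fatty acid elongase of cold-exposed fat, stood at -5.73, -5.73 and -2.73 in warm beige, with 2 libraries at the floor, and at -0.59 to -0.1 in warm brown. Its difference of -4.36 ± 0.57 was -5.36 without warm beige 3, shrank to -0.74 with 1 CPM added and did not pass with 5 CPM added (-0.19, adjusted p = 0.0523).

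Of the 32 measured genes of the thermogenic list 30 were called lower in warm beige (93.8%), against 40.1% of all rows, with a median of -2.83 log2 units. The member that was not called was Bmp8b, named after its values were seen. Among the lower members the mitochondrial protein gene Letmd1 was at -3.03 ± 0.08, the calsyntenin gene Clstn3 at -3.97 ± 0.12 and the nuclear receptor gene Ppara, a regulator of fatty acid oxidation, at -3.95 ± 0.16. Adrb3, the beta-3 adrenergic receptor, was called higher. It stood at 8.93, 9.9 and 9.5 log2 CPM in warm beige and at 7.76, 7.13, 7.12, 7.03 and 6.74 in warm brown, with no overlap and a difference of 2.29 ± 0.23 (adjusted p = 7.45e-09). The list was written from general knowledge of brown fat, with results of these libraries already known, so its direction is no independent evidence. In cold mice 12 of the 32 were called lower and 3 higher, with a median of -0.44.

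Genes reported as markers of classical brown or of beige cells did not all separate the groups by their label. Of 14 classical brown markers 10 were lower in warm beige and 1 higher (median -0.90). The nucleoside transporter Slc29a1 stood at 3.2, 3.46 and 3.22 log2 CPM in warm beige and at 6.52, 6.5, 6.93, 6.66 and 6.47 in warm brown, a difference of -3.32 ± 0.24 with -3.66 in cold mice. Its groups lay apart. The adhesion gene Mpzl2 was at -2.42 ± 0.20, and the signal regulatory protein gene Sirpa was the member called higher, at 1.52 ± 0.20.

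Of 15 reported beige markers 10 were higher in warm beige and 4 lower (median 1.12), and the positional genes Hoxc9, Tbx1, Shox2 and Tbx15 are among the higher ones. The amino acid transporter Slc36a2, used as a marker of brown and beige cells, stood at 6.2, 6.94 and 7.02 log2 CPM in warm beige and at 8.64, 8.93, 8.54, 8.96 and 8.83 in warm brown. That difference was -2.06 ± 0.18, against -0.34 in cold mice. The purinergic channel gene P2rx5 differed by -2.11 ± 0.15, against -0.12 in cold mice. Neither gene's groups overlapped in warm mice.

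Of 32 measured genes of adrenergic and cyclic AMP signalling, Adrb3 among them, 16 were lower in warm beige and 8 higher, shares of 50% and 25% beside 40.1% and 35.3% of all rows. The median was -0.66, and within batch 1 4 were called higher. The catalytic subunit of protein kinase A, Prkaca, stood at 7.43, 7.43 and 7.39 log2 CPM in warm beige and at 8.91, 8.84, 8.99, 8.93 and 8.94 in warm brown, a difference of -1.50 ± 0.07 (adjusted p = 7.42e-15). The regulatory subunit Prkar2b was at -1.22 ± 0.08, adenylate cyclase 9 (Adcy9) at -1.83 ± 0.09 and the cyclic AMP phosphodiesterase Pde4a at -3.94 ± 0.11. Adenylate cyclase 5 (Adcy5), in contrast, was higher at 2.27 ± 0.21. In the immediate early list, Nr4a1, an orphan nuclear receptor gene induced by cyclic AMP, stood at 1.6, 1.56 and 2.14 in warm beige and at 6.48 to 6.77 in warm brown, a difference of -4.87 ± 0.48. Of its 26 measured genes 10 were higher (38.5%) and 7 lower (26.9%), beside 35.3% and 40.1% of all rows.

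The 18 classical adipocyte marker and storage genes called among 23 pan-adipocyte genes were nearly balanced, with 10 higher and 8 lower in warm beige. These shares of 43.5% and 34.8% stand beside 35.3% and 40.1% of all rows. Adiponectin, Adipoq, stood at 9.51, 9.37 and 9.06 log2 CPM in warm beige and at 9.47, 9.92, 9.41, 9.71 and 9.52 in warm brown. The groups overlapped and the difference of -0.29 ± 0.16 did not pass (adjusted p = 0.0991). The fatty acid binding protein gene Fabp4 was higher at 1.34 ± 0.13, the droplet coat gene Plin4 at 1.27 ± 0.11 and adipsin, Cfd, at 2.03 ± 0.20. Glycerol phosphate dehydrogenase, Gpd1, was lower at -2.11 ± 0.14 and the insulin-responsive glucose transporter Slc2a4 at -1.63 ± 0.08. Both groups thus carried the defining adipocyte markers, while the brown and beige markers Ucp1, Dio2 and Cox8b were 3.72 to 7.82 log2 units lower in warm beige. Of the other markers fixed for these cells, Cidea was lower by a smaller amount and Elovl3 was lower at values near the floor.

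**Figure D2:**
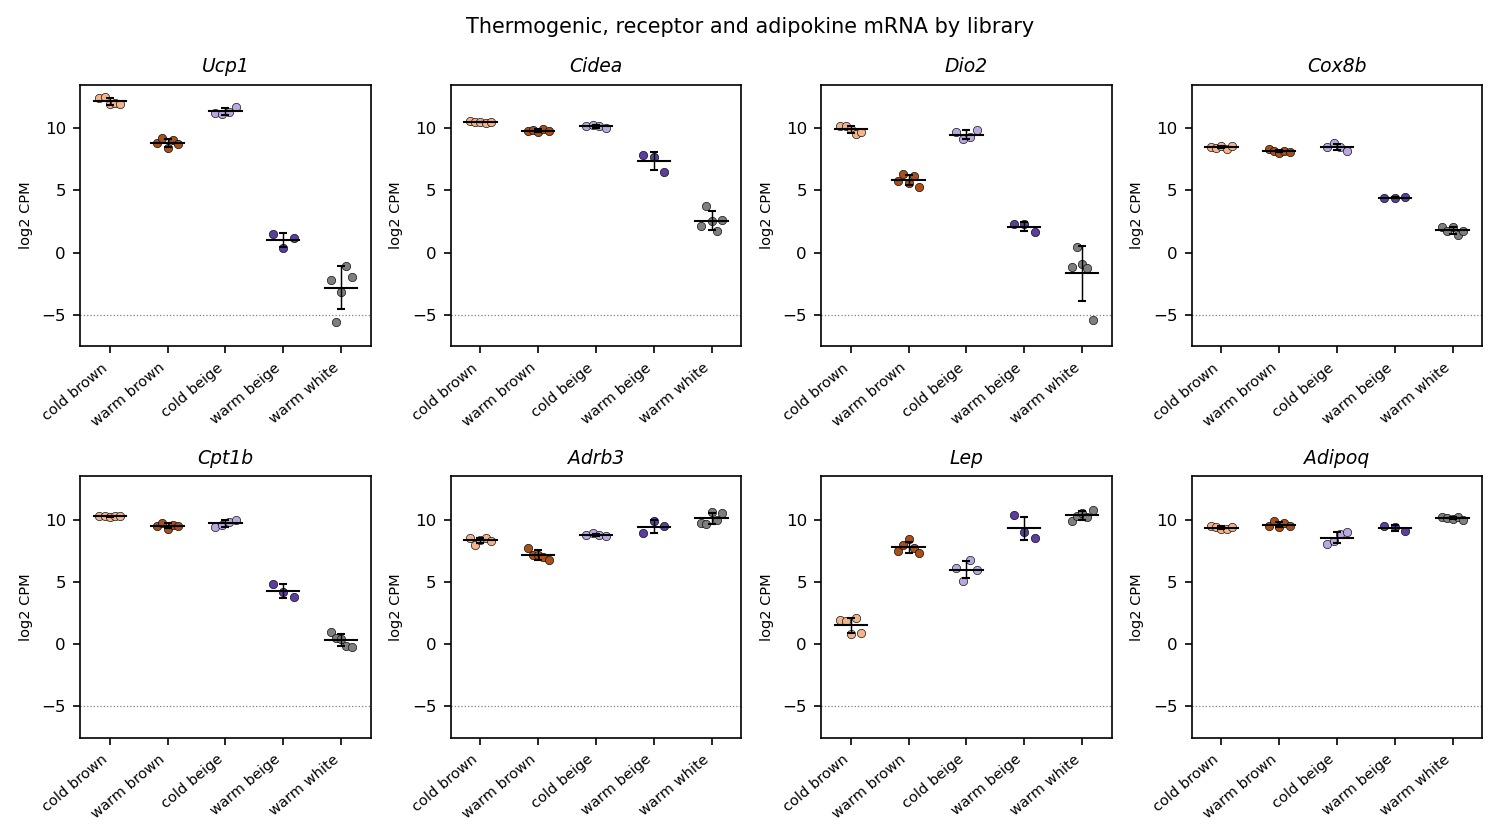
Log2 CPM of 8 adipocyte genes in each of the 22 libraries, by group on the x axis, with points for libraries, a line for the mean, a bar for the SD and a dotted line for the floor at -5. Ucp1, Cidea, Dio2, Cox8b and Cpt1b are lower in warm beige than in warm brown, Adrb3 and Lep are higher, and Adipoq overlaps.

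Nuclear-encoded genes of the respiratory chain were mostly lower in warm beige. The subunits encoded by mitochondrial DNA were searched for by symbol, and none was found in the deposited table. Of 36 measured complex I subunits 32 were lower and 0 higher, with a median of -1.36 log2 units. All 4 measured subunits of complex II were lower (median -1.33), 8 of 9 genes of complex III and cytochrome c (median -1.20) and all 14 measured ones of complex IV (median -1.60). Of 14 ATP synthase subunits 10 were lower (median -1.07) and 1 higher. These shares, from 71.4% to 100% lower, stand against 40.1% of all rows.

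Cytochrome c, Cycs, which carries electrons to complex IV, stood at 3.06, 3.05 and 2.6 log2 CPM in warm beige and at 5.79, 5.65, 5.39, 5.7 and 5.45 in warm brown. Its groups did not overlap and differed by -2.69 ± 0.11 (adjusted p = 3.62e-15), against -0.23 in cold mice (adjusted p = 0.0622). The complex I gene Ndufs8 was at -3.45 ± 0.17, the complex III core gene Uqcrc2 at -2.99 ± 0.12, the complex II iron-sulfur gene Sdhb at -2.32 ± 0.16, and the complex IV gene Cox7b at -2.69 ± 0.14. The ATP synthase gene called higher was Atp5g3, a subunit of the proton-driven ring, at 0.85 ± 0.11, with warm beige at 8.46, 8.43 and 7.86 and warm brown at 7.35 to 7.45. Within batch 1, which holds warm beige 3, it did not pass (0.43, adjusted p = 0.0555).

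Of 19 TCA cycle enzymes 18 were lower, with a median of -1.94. Isocitrate dehydrogenase, Idh3a, stood at 7.54, 7.5 and 6.96 log2 CPM in warm beige and at 10.48, 10.46, 10.22, 10.42 and 10.37 in warm brown, a difference of -3.06 ± 0.12 (-0.38 in cold mice). Its groups lay apart, and oxoglutarate dehydrogenase, Ogdh, was at -2.58 ± 0.10. Of 67 measured mitochondrial ribosome genes 61 were lower (91%) with a median of -1.05, among them Mrpl34 at -3.21 ± 0.15 and Mrpl10 at -1.94 ± 0.08. The gene called higher, Mrpl20 (0.39 ± 0.14, adjusted p = 0.0142), stood at -0.06 within batch 1 and did not pass there, nor without warm beige 1 (0.24) or warm beige 2 (0.33).

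The NRF1 core shown for Cycs, GCGCANGCG on either strand, was found in 22 of 68 promoters of the respiratory chain and ATP synthase (32.4%), and in 13.6% of 11038 promoters of 8620 genes in the table. These windows run from 250 bases before to 50 after the start. The share was 21.2% for the mitochondrial ribosome, 12.9% for rows called at least 2-fold lower in warm beige and 6.9% for rows at least 2-fold higher. The cyclic AMP element TGACGTCA was found in 7.35% of respiratory promoters and 3.11% of all, and TGACG, which is part of it, in 36.8% and 31.2%. Among rows called at least 2-fold lower TGACGTCA was found in 3.06% and TGACG in 31.9%, near the shares of all promoters. The thermogenic list was not searched as a set. The ERR element TNAAGGTCA was found in 3 of 68 respiratory promoters (4.41%), in 0 of 66 of the mitochondrial ribosome and in 0.734% of all. The ETS core CCGGAAGT was found in 7.35%, 16.7% and 7.98% of these sets. These shares describe letters in the promoters and not bound factors.

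Of 32 measured genes of fatty acid oxidation 26 were lower (median -1.18) and 3 higher. The mitochondrial thiolase Acaa2 was at -2.92 ± 0.13, the carnitine-acylcarnitine carrier Slc25a20 at -2.29 ± 0.09 and the short-chain dehydrogenase Acads at -1.77 ± 0.07. Fabp3, the fatty acid binding protein of muscle and brown fat, stood at 3.14, 2.37 and 1.46 in warm beige and at 7.62 to 8.27 in warm brown, a difference of -5.67 ± 0.69 against 0.02 in cold mice.

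Of 27 genes of glucose uptake and glycolysis 20 were lower, with a median of -1.76, and 3 higher. Enolase 1, Eno1, stood at 5.26, 5.19 and 5.17 log2 CPM in warm beige and at 7.53 to 7.84 in warm brown, a difference of -2.52 ± 0.10. Pgam1, phosphoglycerate mutase, was at -2.25 ± 0.10. Higher were the glucose transporter Slc2a3 (3.03 ± 0.29) and the neuronal enolase Eno2 (4.30 ± 0.71). For the breakdown of branched-chain amino acids 17 of 20 rows were lower (median -1.10), with the ketoacid dehydrogenase subunit Bckdha at -1.60 ± 0.08 and the hydratase Auh at -1.49 ± 0.06. The 2 rows called higher both carried the symbol of the transaminase Bcat2, at 3.95 ± 0.59 and 0.49 ± 0.10.

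Synthesis of lipid was less one-sided. Of 18 genes of de novo lipogenesis 6 were lower and 5 higher, shares of 33.3% and 27.8% beside 40.1% and 35.3% of all rows. The elongase Elovl6 was at -2.21 ± 0.11 and ATP citrate lyase, Acly, at -2.09 ± 0.29, and the desaturase Fads1 was higher at 2.32 ± 0.24. Of 16 genes of triglyceride synthesis 9 were lower and 4 higher (median -0.92). Glycerol kinase, Gk, which recycles glycerol in brown fat, was at -2.15 ± 0.13 and the mitochondrial glycerol phosphate dehydrogenase Gpd2 at -2.92 ± 0.12, while the acyltransferase Agpat9 was at 1.65 ± 0.14. In the cholesterol list, which covers synthesis and uptake, 12 of 23 genes were lower (52.2%) and 5 higher (21.7%). The sterol dehydrogenase Nsdhl was at -1.77 ± 0.25 and the regulator Srebf2 at 0.65 ± 0.11. Of 17 genes of lipolysis and the lipid droplet 7 were lower (41.2%, near the 40.1% of all rows) and 2 higher (11.8%). The median was -0.24, with 5 higher under totals without the 20 most abundant genes and 4 under quantile normalization. Lower were the droplet coat gene Plin3 at -1.97 ± 0.11 and the lysosomal lipase Lipa at -1.53 ± 0.15, and the droplet fusion gene Cidec was higher at 0.66 ± 0.09. Of 18 genes of fatty acid uptake and binding 8 were lower (44.4%) and 6 higher (33.3%), near the 40.1% and 35.3% of all rows. The lipase inhibitor gene Angptl8 was at -2.35 ± 0.28 and the fatty acid transporter Slc27a1 at 0.91 ± 0.08. Of 33 peroxisomal genes 21 were lower (63.6%) and 8 higher (24.2%). The phytanic acid hydroxylase Phyh was at -1.75 ± 0.09 and the very long chain fatty acid transporter Abcd2 at 2.12 ± 0.12.

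The creatine and calcium cycles have been described as other ways to spend ATP as heat. Creatine kinase B, Ckb, stood at 3.9, 3.92 and 3.77 log2 CPM in warm beige and at 7.72, 7.58, 7.24, 7.54 and 7.65 in warm brown, a difference of -3.68 ± 0.21. The creatine transporter Slc6a8 stood at 4.29, 4.19 and 4.37 against 7.46 to 7.78, a difference of -3.31 ± 0.12. Both genes' groups lay apart. Slc6a8 was at 4.51 to 4.67 in cold beige and 4.96 to 5.09 in cold brown, so its warm brown level was the high one among the 5 groups. The calcium pump gene Atp2a2 was at -0.91 ± 0.09 and the channel gene Itpr1 at -1.56 ± 0.08, and the pump gene Atp2a3 was higher at 3.64 ± 0.20.

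White adipocyte markers were higher in warm beige for 18 of 21 measured genes (85.7%, median 3.47), and in cold mice also for 18 (median 3.42). Resistin, Retn, stood at 7.38, 8.56 and 8.37 log2 CPM in warm beige and at 2.32, 1.88, 1.66, 1.95 and 2.04 in warm brown. Its groups did not overlap and differed by 6.13 ± 0.29 (adjusted p = 3.79e-14). The neutral amino acid transporter Slc7a10 stood at 2.36, 2.67 and 4.31 in warm beige and from -5.95 to -3.79 in warm brown, a difference of 8.16 ± 0.52 that was 7.56 without warm beige 3 and 3.24 with 1 CPM added. The secreted protein gene Ccdc80 was at 3.92 ± 0.19. Of the 2 lower members, the acyltransferase Lpgat1 (-0.43 ± 0.13) did not pass without warm beige 3 (-0.28, adjusted p = 0.0624), and the retinoblastoma gene Rb1 was at -0.72 ± 0.09.

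Leptin, Lep, was high in both groups. It stood at 10.35, 9 and 8.51 log2 CPM in warm beige and at 7.51, 7.96, 8.43, 7.69 and 7.29 in warm brown, and the lowest beige library was just above the highest brown one. The difference of 1.51 ± 0.38 (adjusted p = 0.00112) was 0.98 without warm beige 1, and within batch 1 it was 0.78 and did not pass (adjusted p = 0.0579). In cold mice the depots differed by 4.46, with cold brown at 0.8 to 2.08. Nnat, an imprinted gene of adipocytes and neurons, was also higher at both temperatures, at 3.30 ± 0.34 in warm and 5.20 in cold mice.

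**Figure D3:**
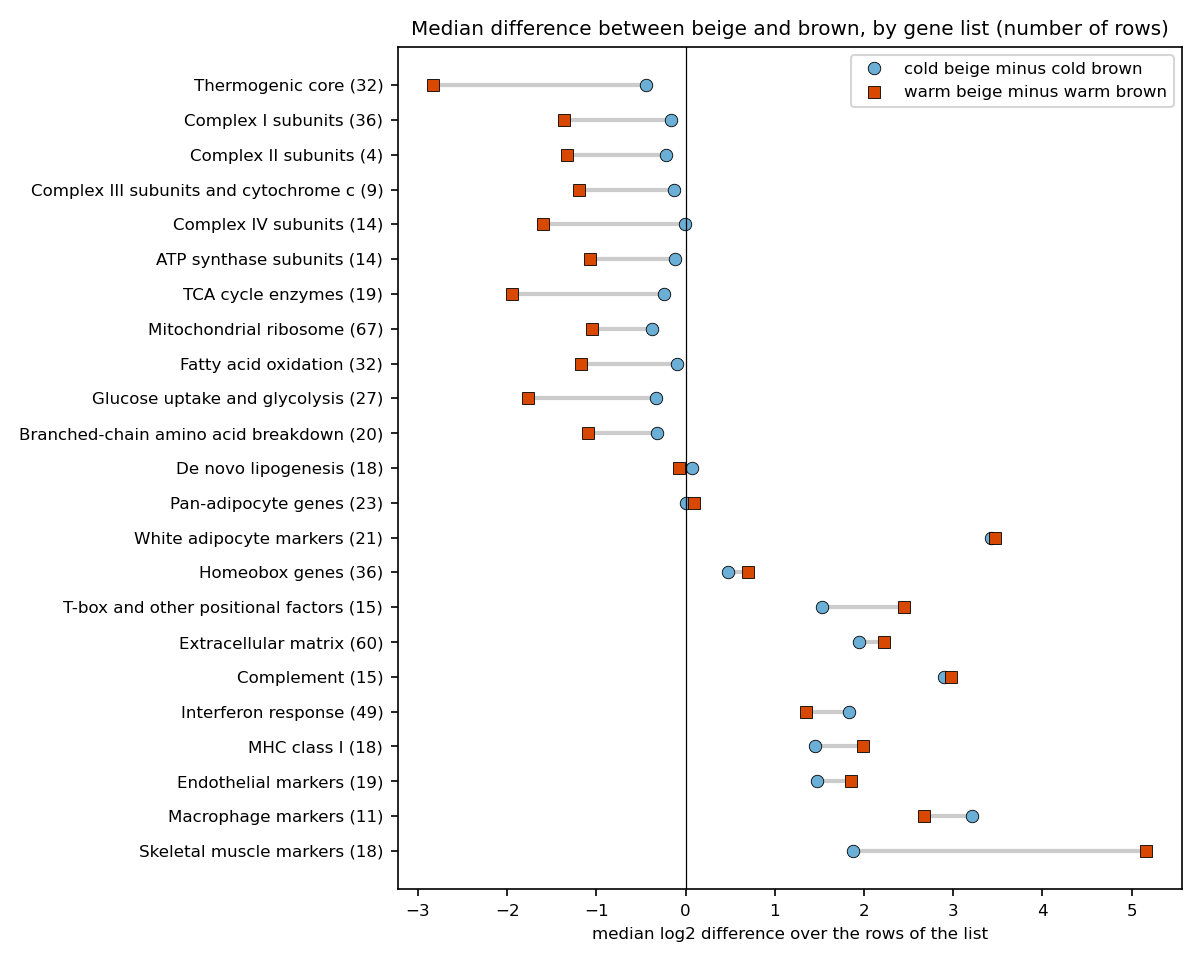
Median log2 difference, beige minus brown, of 23 gene lists in warm mice (squares) and in cold mice (circles), with the number of measured rows in brackets. The mitochondrial and thermogenic lists lie further below 0 in warm than in cold mice, and the white marker, matrix and complement lists lie above 0 at both temperatures.

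Receptors and secreted factors held some of the largest differences. The short-chain fatty acid receptor Ffar2 stood at 6.43, 7.37 and 6.99 log2 CPM in warm beige and at 0.31, -0.5, 0.31, -0.19 and -0.98 in warm brown, a difference of 7.14 ± 0.39 (adjusted p = 3.22e-13, 6.02 with 1 CPM added). The chemerin receptor Cmklr1 stood at 6.56, 7.05 and 6.58 and at -0.19 to 0.4, a difference of 6.64 ± 0.33. Neither overlapped. The natriuretic peptide receptor Npr2 was at 4.04 ± 0.16 and the insulin receptor substrate Irs1 at 1.45 ± 0.12, while the oestrogen receptor Esr1 was lower at -1.28 ± 0.11 and the adiponectin receptor Adipor1 at -0.87 ± 0.09. Of 27 metabolite and hormone receptors 15 were higher and 4 lower (median 0.37). Of 34 secreted factors 14 were higher and 11 lower, shares of 41.2% and 32.4% beside 35.3% and 40.1% of all rows. Among them were the growth factor binding protein Igfbp4 at 5.35 ± 0.21, the activin subunit Inhbb at 4.48 ± 0.32, Vegfb at -1.72 ± 0.10 and Nampt at -1.47 ± 0.10.

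Of 48 genes of BMP, TGF-beta and Wnt signalling 24 were higher and 10 lower (median 0.34). Lgr6, a receptor for R-spondins that raises Wnt signalling (chromosome 1, 134983300 to 135105374), stood at -0.73, -6.16 and -5.41 log2 CPM in warm beige and at 7.94, 7.37, 7.18, 7.17 and 6.27 in warm brown. Cold beige stood at 6.54 to 7.48, so warm beige was the low group among beige and brown. Its difference, -11.29 ± 0.77, ran from -12.97 without warm beige 1 to -10.26 without warm beige 2, and was -6.95 with 1 CPM added. Id2, an inhibitor of basic helix-loop-helix factors that BMP induces, was at -3.48 ± 0.26. Higher were the protease Bmp1 (2.82 ± 0.30) and the Wnt effector Tcf7l2 (1.73 ± 0.14).

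Extracellular matrix genes were higher in warm beige for 50 of 60 measured genes (83.3%, against 35.3% of all rows), with a median of 2.23, and in cold mice for 46 (median 1.94). The collagen genes Col5a2, Col5a1, Col18a1 and Col4a1 were at 4.63 ± 0.20, 4.31 ± 0.24, 3.44 ± 0.17 and 1.96 ± 0.11. Col12a1, a collagen that lies along other fibrils, went the other way. It stood at 1.58, 1.81 and 1.5 log2 CPM in warm beige and at 7.48, 7.65, 6.8, 7.05 and 6.98 in warm brown, a difference of -5.56 ± 0.31, with cold brown at 4.25 to 4.79. Lox, which cross-links collagen, was lower at -1.54 ± 0.14. Fibroblast and preadipocyte markers, which share the collagens, counted 16 of 18 higher (median 3.34), and the log2 of their summed CPM was 13.10 to 13.66 in warm beige, 10.71 to 10.89 in warm brown and 13.66 to 13.93 in warm white. The part of other cells' RNA in the matrix differences was not tested.

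Genes of innate defence were higher in warm beige in most lists. Of 49 interferon response genes 37 were higher and 3 lower (median 1.35), and in cold mice 44 were higher and 2 lower (median 1.83). Trim25, a ubiquitin ligase of the RIG-I pathway, stood at 7.36, 7.35 and 7.61 log2 CPM in warm beige and at 5.81, 5.55, 5.81, 5.72 and 5.73 in warm brown. Its groups did not overlap and differed by 1.72 ± 0.10 (adjusted p = 1.44e-12), as in cold mice (1.71). Irf1 was at 2.46 ± 0.20 and the peptide transporter genes Tap1 and Tap2 at 2.08 ± 0.12 and 2.03 ± 0.11. Ifi27, which acts in mitochondria, was lower at -1.24 ± 0.11. The interferon element core shown for Trim25 was found in 23 of 49 promoters of the interferon and MHC class I genes (46.9%) and in 6.89% of all promoters.

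Of 18 MHC class I genes 15 were higher (median 1.99), with H2-K1 at 1.93 ± 0.09 and H2-D1 at 2.04 ± 0.11. The light chain B2m stood at 7.35, 7.19 and 7.45 in warm beige and at 7.62 to 8.39 in warm brown. Its call as lower (-0.54 ± 0.21, adjusted p = 0.0233) was lost without warm brown 2 (0.0717) or warm beige 2 (0.0882) and under 3 other scalings of the libraries. Of 15 complement genes 13 were higher (median 2.97), with C4b at 5.04 ± 0.24 and factor B, Cfb, at 4.96 ± 0.26. The use of strand and of multiply mapped reads in counting is not stated, so reads of near-identical genes, such as the H2 genes, C4b and its copy, the fast myosins and the ribosomal protein genes, could have been split between copies.

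Of the 70 measured cytosolic ribosomal protein genes 33 were lower in warm beige (47.1%) and 15 higher (21.4%), with a median of -0.31. Of all rows 40.1% were lower and 35.3% higher. Rps7 was at -2.21 ± 0.13, Rps21 at 1.03 ± 0.14 and Rps24 at 0.88 ± 0.13. Of 15 clock genes 7 were lower and 5 higher (3 without warm beige 1 or without warm beige 3, and 2 within batch 2). These shares of 46.7% and 33.3% stand beside 40.1% and 35.3% of all rows. The activators Arntl (-2.34 ± 0.33) and Clock (-1.11 ± 0.09) and the repressor Nfil3 (-2.52 ± 0.18) were lower, and Rora was higher at 0.82 ± 0.10. The hour of collection is not given in the labels. Of 23 imprinted genes 11 were higher (47.8%) and 7 lower (30.4%), beside 35.3% and 40.1% of all rows. Among them were the adaptor Grb10 at 2.99 ± 0.15, Peg3 at 1.90 ± 0.17, the stimulatory G protein gene Gnas at -1.40 ± 0.10 and necdin, Ndn, at -2.73 ± 0.20. Magel2, which neighbours Ndn in a known imprinted cluster, stood at 2.81 to 4.36 log2 CPM in warm brown and at the floor in all warm beige libraries.

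Other genes at the floor in all 3 warm beige libraries were A530050N04Rik (5.19 to 5.6 in warm brown), AK032118 (2.19 to 2.45) and the prostaglandin D synthase Ptgds (1.63 to 2.9). In all, 17 rows lay at the floor throughout warm beige and 16 throughout warm brown. Further large differences involved warm beige libraries that varied widely, some of them at the floor. The kininogen gene Kng2 stood at -0.59, -1.2 and -5.55 in warm beige and at 7.1 to 7.92 in warm brown, and its difference of -9.94 ± 0.81 became -8.38 without warm beige 3 and -7.07 with 1 CPM added. The GDP dissociation inhibitor gene Arhgdig (-9.77 ± 0.51, -5.13 with 1 CPM added), Cfap54 of cilia (-8.55 ± 0.76, -5.10), the nuclear receptor Esrrb (-7.68 ± 0.78, -3.23) and the aldolase Aldoc (-7.36 ± 0.56, -3.83) also lay far lower in all 3 warm beige than in the 5 warm brown libraries. Without single warm beige libraries these ran from -10.99 to -9.06 for Arhgdig, -9.43 to -7.13 for Cfap54, -9.04 to -7.0 for Esrrb and -8.15 to -6.21 for Aldoc.

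Genes of skeletal muscle were among the large differences upward, and they varied between warm beige libraries. Myh4, a fast myosin, stood at 6.5, 6.23 and 1.53 log2 CPM in warm beige 1 to 3 and at -1.73, -7.21, -4.35, -4.35 and -4.35 in warm brown. The groups did not overlap, which the rule for naming the gene required, and warm beige 3 was far below the other 2. The difference of 9.15 ± 1.59 (adjusted p = 2.01e-05) ran from 8.28 without warm beige 1 to 10.76 without warm beige 3, and within batch 1 it was 6.00 and did not pass (adjusted p = 0.12). With 1 CPM added it was 4.79. The Myh4 values of -7.21 in batch 1 and -4.35 in batch 2 recurred in cold brown and were the lowest level of each batch. All warm brown libraries but warm brown 1 stood at that level, so the size of this difference is not to be read as a fold. The calcium buffer gene Pvalb held only its lowest level of each batch in brown libraries, -6.64 in batch 1 and -4.93 in batch 2, at both temperatures. The size of the Pvalb difference is thus not to be read as a fold either. Pvalb (8.66 ± 1.67), the muscle actin Acta1 (8.03 ± 0.93) and the troponin gene Tnnt3 (7.10 ± 1.18) shared the order of Myh4, with warm beige 3 the lowest of the warm beige libraries. Without warm beige 3 they stood at 9.74, 8.71 and 7.95, and within batch 1 Pvalb and Tnnt3 did not pass (adjusted p = 0.0749 and 0.0795).

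Of 18 skeletal muscle markers 14 were higher and 4 lower, but within batch 1, whose warm beige library is warm beige 3, 1 was called higher and 2 lower. Over all libraries the lower ones included myoglobin, Mb (-4.74 ± 0.41), which brown fat also expresses. The log2 of their summed CPM was 7.00 to 9.04 in warm beige, 7.09 to 7.44 in warm brown and 5.88 to 10.06 in warm white. Of 19 endothelial markers 15 were higher and 0 lower (median 1.85), with summed levels of 9.58 to 10.14 in warm beige, 7.55 to 8.34 in warm brown and 6.34 to 6.91 in warm white. The clotting factor carrier Vwf stood at 7.15, 7.71 and 6.47 in warm beige and at 0.97, 1.23, 1.09, 2.01 and 3.01 in warm brown, a difference of 5.45 ± 0.63. Its groups lay apart.

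Of 11 macrophage markers 9 were higher and 0 lower (median 2.67), with summed levels of 7.49 to 7.64 in warm beige, 4.78 to 5.28 in warm brown and 6.42 to 7.20 in warm white. The scavenger receptor Cd163 stood at 5.2, 5.33 and 5.56 in warm beige and at 1.67, 0.7, 0.86, 1.19 and 1.12 in warm brown, a difference of 4.25 ± 0.25. Of 13 smooth muscle and pericyte markers 10 were higher and 1 lower (6 and 0 within batch 1), with Notch3 at 3.00 ± 0.47. Of 5 Schwann and neuronal markers 1 was higher and 3 were lower (1 lower without warm beige 2, within batch 1 and with totals without the 20 most abundant genes, and 0 higher under a filter of 5 CPM), including S100b at -2.85 ± 0.21, a gene that brown adipocytes also express. Lymphocyte markers were searched for by symbol, and none was found in the deposited table. The part of RNA from other cells in the differences of the adipocyte lists was not tested, and fewer cells of a type cannot be told apart from less RNA per cell.

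**Figure D4:**
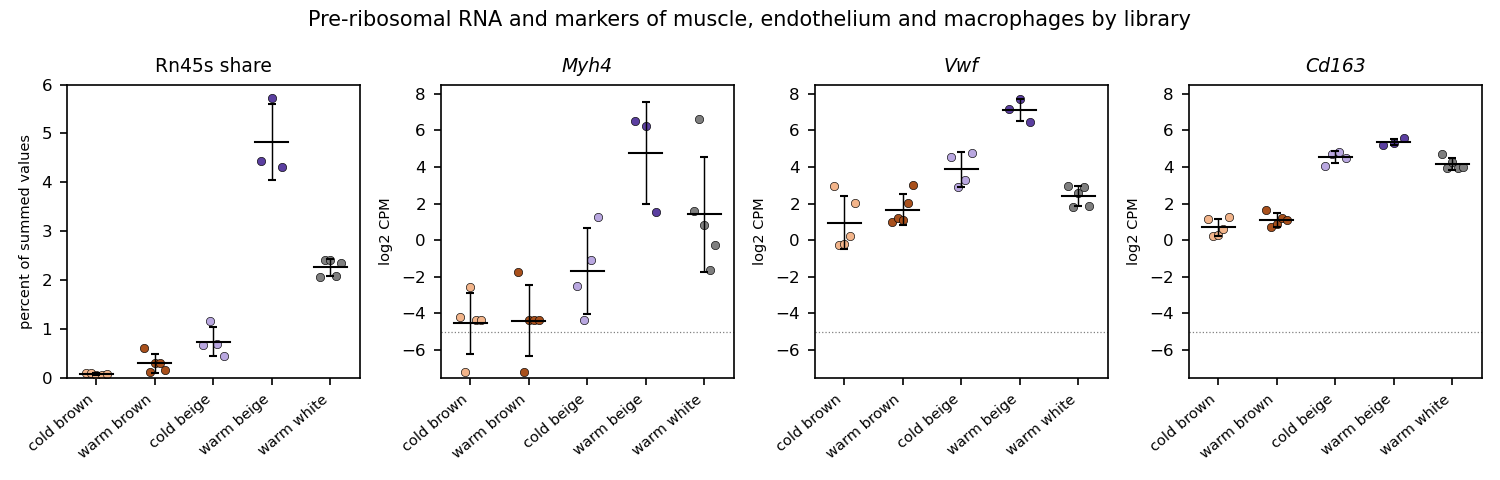
Pre-ribosomal RNA (Rn45s, percent of the summed values) and log2 CPM of the muscle gene Myh4, the endothelial gene Vwf and the macrophage gene Cd163 in each of the 22 libraries, by group. Rn45s is 4.32% to 5.72% in warm beige and at most 0.597% in warm brown, and Vwf and Cd163 are higher in every warm beige than in any warm brown library.

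The difference between the depots in warm mice was set against that in cold mice, which uses other libraries. In cold mice 7184 rows were called (61.9%) with a median absolute difference of 0.40, against 0.70 in warm mice. Of the rows called in warm mice 5322 (60.8%) were called the same way in cold mice, which is 74.1% of the cold calls, and 519 the opposite way. The test of the difference itself called 5477 rows (47.2%), of which 3765 shifted downward in beige relative to brown (32.4%) and 1712 upward (14.8%). Within batch 1 1969 rows were called. The median shift over all rows was -0.17.

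The downward shifts lay heavily in the mitochondrial lists. They took 31 of 36 complex I genes, all 4 of complex II, 8 of 9 of complex III and cytochrome c, 13 of 14 of complex IV, 12 of 14 of ATP synthase and 18 of 19 of the TCA cycle, against 32.4% of all rows. The lists' medians in cold mice were near 0 for complex IV (-0.01), ATP synthase (-0.12) and complex I (-0.16), and at -1.60, -1.07 and -1.36 in warm mice. In fatty acid oxidation 27 of 32 shifted downward, and in the thermogenic list 24 of 32, with 2 upward. The mitochondrial ribosome shifted in 51 of 67, but it was also lower in cold beige for 44 genes. Glycolysis shifted downward in 18 of 27 genes.

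Of 36 homeobox genes 5 shifted downward and 6 upward, and of 21 white markers 6 each way, where all rows gave 32.4% downward and 14.8% upward. Of 60 matrix genes 11 shifted upward and 9 downward. Interferon genes were higher in beige at both temperatures, and 18 of 49 shifted downward and 4 upward, near the shares of all rows (32.4% and 14.8%). Upward shifts included Adrb3 (1.84, adjusted p = 4.22e-05) and the adhesion receptor Adgrg2 (4.07), which stood at 4.39 to 4.44 log2 CPM in warm beige and 0.98 to 1.35 in warm brown, but at 3.05 to 3.72 in cold beige and 3.78 to 4.52 in cold brown.

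**Figure D5:**
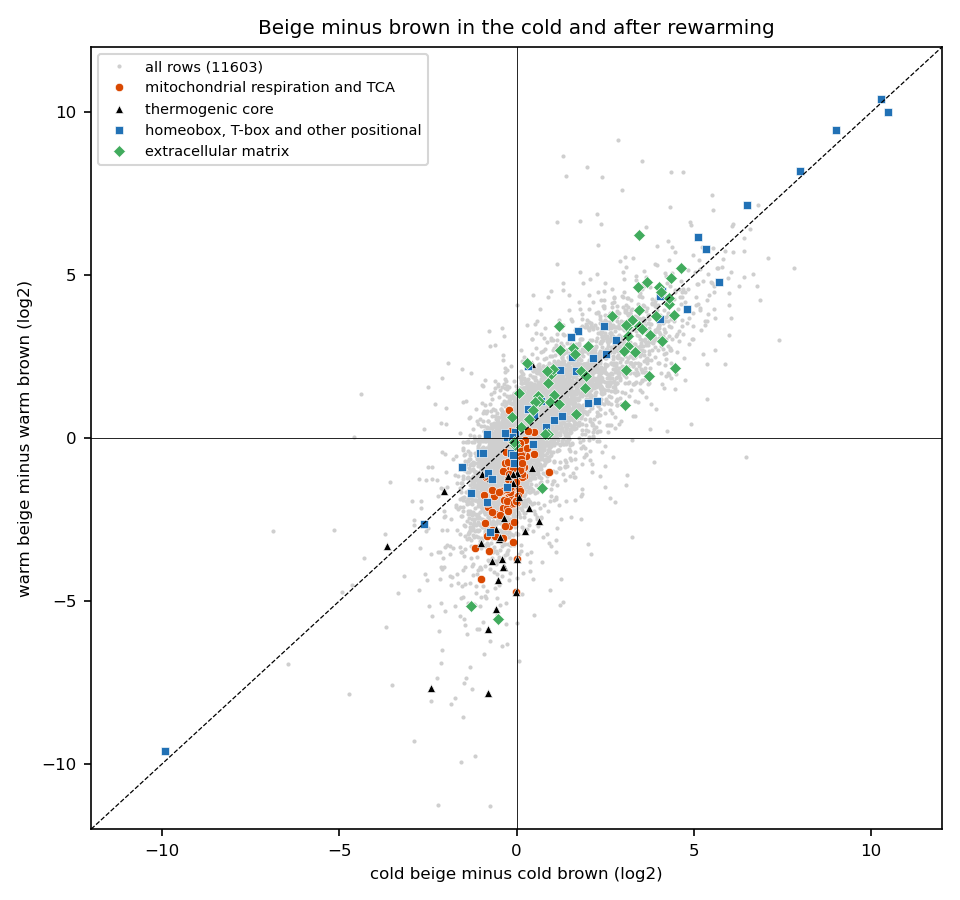
Log2 difference, beige minus brown, in cold mice (x axis) and in warm mice (y axis) for all 11603 rows (grey), with mitochondrial genes as orange circles, thermogenic genes as black triangles, positional genes as blue squares and matrix genes as green diamonds; the dashed line marks equality. Most mitochondrial and thermogenic genes lie below the line, at a median of -0.44 (cold) and -2.83 (warm) for the thermogenic list.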

How the data were processed

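Messenger RNA bound to tagged ribosomes was sequenced in 22 libraries. The authors deposited log2 CPM values per transcript row. The tools named in the submitters' processing notes are featureCounts, HISAT2, edgeR and Picard, on the mm10 build, with versions not given in the sources used here. Read depth is unknown, since the files hold no counts. Floor values showed 2 batches whose difference had already been removed from the deposited values; the labels name no batch.

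All 11603 rows were fitted in 22 libraries with limma 3.58.1 (R 4.3.3), with a mean-variance trend, 5 group means and Benjamini-Hochberg adjustment (threshold 0.05). The script was tested on simulated data. The contrasts were beige minus brown in warm mice, in cold mice, and the difference between these. Genes named were fixed genes, the 10 largest differences each way and floor genes. Also named were the strongest members of each list, the most abundant called genes and the largest differences between temperatures. The 10 largest were taken among called rows whose groups did not overlap, with a group mean of at least 3 log2 CPM. The largest differences between temperatures had the same limits and were taken among rows also called in that test. The gene lists and the comparison were chosen with earlier results of these data known. Some genes that this rule selects are not reported here. Motifs were searched on both strands of RefSeq promoters (GRCm38.p6). Alternatives were pseudocounts of 1 and 5, filters, scalings, batches, replicate blocks and leaving out each library.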

Additional observations from a re-analysis of the deposited data

Results flagged for a closer look

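Listed here are 16 of the fixed genes and of those picked as the largest differences between temperatures. Their difference between beige and brown was itself different in warm and in cold mice, by limma's test with Benjamini-Hochberg adjustment over all rows. The picked genes were taken from rows that this test called, so their passing is no separate evidence. Other named genes passed too, such as Adcy5 (-3.60, adjusted p = 1.22e-09). Heat production and oxidation shifted downward in beige relative to brown for Ucp1 (-7.0, adjusted p = 1.59e-07), Perm1 (-5.97, adjusted p = 4.85e-09), Elovl3 (-3.84, adjusted p = 0.000297), Dio2 (-3.30, adjusted p = 0.00802), Cidea (-2.12, adjusted p = 0.000119) and Ppargc1a (-1.29, adjusted p = 9.91e-06). The R-spondin receptor gene Lgr6 (-10.54, adjusted p = 3.36e-08), Arhgdig (-8.59, adjusted p = 1.29e-09), Kng2 (-8.37, adjusted p = 1.92e-06) and Cfap54 (-7.05, adjusted p = 7.72e-06) shifted further, with values in cold beige above those of every warm beige library. The shift of Elovl3 did not pass with 1 CPM added (-0.23, adjusted p = 0.204) and that of Dio2 did not within batch 1 (adjusted p = 0.274). Lep shifted by -2.95 (adjusted p = 6.64e-05), a narrower gap in warm mice.

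Upward shifts were found for Pvalb (7.34, adjusted p = 0.0105), Acta1 (6.64, adjusted p = 0.000154), A930016O22Rik (6.32, adjusted p = 0.0277), Myh4 (6.29, adjusted p = 0.0202) and Adgrg2 (4.07, adjusted p = 1.35e-11). That of A930016O22Rik did not pass without any 1 of 6 libraries (warm brown 2, warm beige 1 or 2, cold beige 1, 2 or 3, adjusted p from 0.0502 to 0.0805), under the replicate block of title numbers (adjusted p = 0.0551) or within batch 1 (2.42). That of Pvalb did not pass with 5 CPM added (1.55, adjusted p = 0.0513), and those of Pvalb and Acta1 did not within batch 1 (adjusted p = 0.513 and 0.149). That of Myh4 did not pass without warm beige 1 (5.42, adjusted p = 0.0659) or warm beige 2 (5.55, adjusted p = 0.0635). Within batch 1, with 1 warm beige library, it was only 0.925.

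Lone libraries were searched for in 279 gene and group pairs, in warm brown and for some genes in the cold brown and cold beige groups. Warm beige was not searched. In 11 pairs of genes reported here a single library stood apart from its group. The 279 pairs include genes not reported here, so the 11 cannot be set against the 1 in 20 that chance gives. In warm brown 1 the gene was Fabp4, at 10.84 log2 CPM against 10.5 to 10.59. In warm brown 2 it was Myh1 (-4.09 against -6.06 to -5.5), Acta1 (-6.14 against -3.71 to -2.72) and Cxcl9 (3.95 against 2.73 to 3.08). In warm brown 3 it was Tbx1 (-4.11 against -5.82 to -5.74), Inhbb (3.97 against 2.91 to 3.08) and Idh3b (9.94 against 10.09 to 10.15). In warm brown 5 it was Nfil3 (4.2 against 4.54 to 4.66) and Ndn (7.38 against 7.71 to 7.84). A930016O22Rik stood apart in cold brown 1 (-7.13 against -5.01 to -4.44) and cold beige 4 (1.19 against -4.75 to -4.44). Its lowest level was -7.13 in batch 1, which holds cold brown 1, and -4.44 in batch 2. The cold brown 1 value is thus the lowest level of its batch.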

How the results depend on the processing

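Of 250 named rows 222 kept their call and direction under every alternative run on them, and 248 kept their direction in warm mice. The filter of 5 CPM held 245 of these rows. Many named rows were picked for large or strong differences, so these counts do not describe all called rows. Within batch 1, with 1 warm beige library and so fewer samples, 2611 rows were called higher, 3710 were called in cold mice and 1969 differed between temperatures. With 5 CPM added 2495 rows were called and at least 2-fold apart. Directions turned for Scd1 under quantile normalization (-1.08, adjusted p = 5.14e-08, against 0.65), for Mrpl20 within batch 1 (-0.055, adjusted p = 0.859) and for the shift of Elovl3 between temperatures with 5 CPM added (0.32, adjusted p = 0.0284); the cause was not tested. Within batch 1 the members called higher fell to 1 of 32 for fatty acid oxidation, 3 of 18 for lipogenesis, 3 of 18 for fatty acid uptake, 1 of 23 for cholesterol, 3 of 33 for peroxisomes, 8 of 34 for secreted factors and 14 of 48 for BMP, TGF-beta and Wnt genes. Adding 5 CPM, which compresses low values, made some list medians smaller in size. They became 0.86 for T-box and other positional factors, 0.36 for homeobox genes, 0.55 for reported beige markers and 2.11 for white markers. Those of matrix, interferon, complement and macrophage genes became 1.26, 0.70, 1.52 and 0.98. For fibroblast, skeletal muscle, imprinted and cholesterol genes they were 1.70, 1.45, 0.27 and -0.24. The lipolysis median was -0.09 under quantile normalization. Leaving out each library gave 8332 to 8653 calls. Scaling to totals without the 20 most abundant genes moved the median of all genes by 0.15 log2 units and quantile normalization by 0.11. Under these 54.6% and 49.3% of calls were higher, against 46.8%. A replicate block of title numbers gave 8227 calls and a replicate block of library numbers 8543. Same-numbered warm libraries correlated at -0.068, 0.061 and -0.126 by title and 0.183, 0.065 and 0.205 by library number. The numbers were thus not taken as pairs. Each warm beige library correlated best with warm brown of its own library number, but number 4 by only 0.065 against 0.061. Cold beige of library numbers 3 and 4 correlated better with cold brown 2 (0.323 and 0.173) than with their own number (0.19 and 0.071). Cold beige of numbers 1 and 5 correlated best with their own (0.17 and 0.35). Read depth is unknown, so precision at low values cannot be given.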
